A study of Mus musculus with 6 samples.

Results

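Zinc finger protein genes carrying a numbered Zfp symbol were examined in newborn mouse neocortex with and without Tcf4 in the Emx1 lineage. The members were chosen by symbol and mean level: they were the rows of the deposited expression table whose symbol was Zfp followed by a number and at most 1 lower-case letter, with annotated pseudogenes left out and a mean of at least 1 FPKM over the 6 libraries. FPKM stands for fragments per kilobase of exon and per 1000000 mapped fragments, a level per length of transcript. The formula used for this table was not stated. Of 348 rows with such a symbol, 22 had a mean under 1 FPKM and 2 were annotated pseudogenes, Zfp783 and Zfp939. This left 324 genes of the 15703 in the table. They had 323 different symbols, because Zfp976 was listed under 2 gene identifiers.

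The groups were 3 neocortex libraries labelled WT and 3 labelled Tcf4 f/f; Emx1Cre/+, called cKO here, all from C57BL/6 mice at postnatal day 0. Emx1-driven Cre acts in progenitors of the dorsal telencephalon. Excitatory neurons and astrocytes descended from them carry the deletion, while interneurons and microglia, which arise elsewhere, keep the gene. The labels did not say whether the WT mice carried floxed alleles or Cre, or whether tissue was pooled, and they did not state that each library was a separate animal, so p-values measure the spread between these libraries only.

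Zinc finger proteins of the C2H2 type grip DNA or RNA through short finger repeats, each folded around a zinc ion held by cysteines and histidines. Many mouse members also carry a KRAB box near the amino terminus, which recruits the scaffold protein Trim28 and, through it, the histone methyltransferase Setdb1 and other repressors. KRAB zinc finger genes lie in tandem clusters that expanded by duplication, and their best-known targets are endogenous retroviruses and imprinted loci. The SCAN domain, found in a smaller set, lets such proteins pair with each other. TCF4, a basic helix-loop-helix factor, binds the E-box, CANNTG, as a dimer and is needed for normal cortical development.

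Tcf4 itself (chromosome 18, 69343356 to 69689079, plus strand, mm10) was listed at 71.2, 75.6 and 75.3 FPKM in the WT libraries against 56.5, 60.6 and 55.3 in the cKO libraries. The groups did not overlap, and the difference was -0.36 ± 0.06 (SE) on the log2(FPKM + 1) scale (limma, adjusted p = 0.00411). Values over the whole gene also count exons outside the deleted part, and which exons were deleted is not given in the sources used here. Reads recovered from the FPKM values and summed over genes ran from 25.3 M to 28.8 M per library. The cortical markers Emx1, Tbr1, Bcl11b and Neurod6 were present in every library, from Emx1 at 9.364 to 13.011 FPKM to Neurod6 at 272 to 369 FPKM. They were not all level between the groups. Emx1 was called lower in cKO (limma, adjusted p = 0.0175), a call lost in 3 of the 6 fits that left out 1 library. Tbr1, Bcl11b and Neurod6 were not called. Every cKO library was below every WT library for Tbr1 and above for Neurod6. WT 1 and cKO 3 had Xist at 0.433 and 0.407 FPKM and the Y-linked Ddx3y at 16.1 and 14.7 FPKM, whereas Xist was at 127 to 158 FPKM in the other libraries, so each group held 1 library of this kind.

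Zfp genes were shifted upwards in the cKO cortex. By limma over all 15703 genes with Benjamini-Hochberg adjustment, 43 of the 324 members rose (13.3%; 7.22% of all genes were called higher) and 3 fell (0.926%; 8.59% of all genes were called lower). The other 278 members did not pass an adjusted p of 0.05. The differences were small: the 43 genes that rose did so by 1.19-fold to 1.84-fold (median 1.33-fold), with adjusted p-values from 0.00349 to 0.0493. At an unadjusted p under 0.05, 92 members were higher and 13 lower, beside 2488 higher and 2565 lower of all 15703 genes.

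The direction was shared by most members, called or not. The difference on the log2(FPKM + 1) scale was above 0 in 252 of 324 members (77.8%, against 50.4% of all genes), and its median was 0.10 with quartiles of 0.01 and 0.20, against a median of 0.0017 over all genes. Among the 11534 protein-coding genes with a mean of at least 1 FPKM the median was 0.01, and 7.58% were called higher and 7.37% lower. Every cKO library was above every WT library for 113 members (34.9%, against 18.5% of all genes), and every cKO library was below every WT library for 12 members (3.70%, against 18.7%). The members and the comparison were chosen with results of these data known, so these shares describe the libraries and carry no test of the list. In bulk tissue a change in the number of cells of a type and a change in RNA per cell cannot be told apart.

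**Figure D1:**
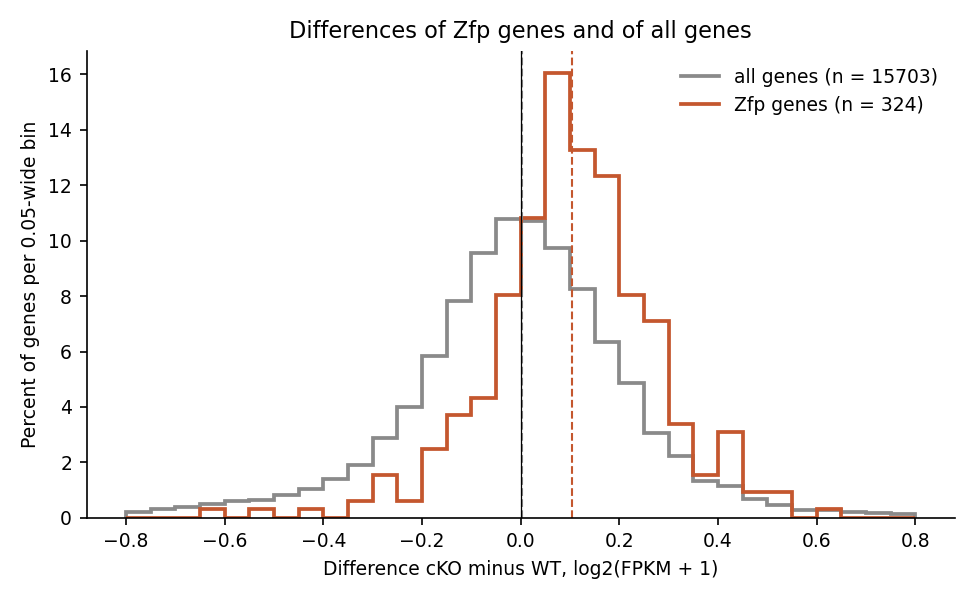
Difference between the cKO and WT means on the log2(FPKM + 1) scale (x axis, shown from -0.8 to 0.8) against the percent of genes in each bin (y axis), for 324 Zfp genes and for all 15703 genes, with dashed lines at the medians. The Zfp curve lies to the right of the curve of all genes, with medians of 0.10 and 0.0017, and few Zfp genes lie below -0.2.

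The members were also compared library by library. For every gene the value in a library was set against that gene's mean over the 6 libraries, on the log2(FPKM + 1) scale. The median of this deviation over the members was -0.039, -0.065 and -0.047 in the WT libraries and 0.042, 0.054 and 0.059 in the cKO libraries. All 3 cKO libraries were thus above all 3 WT libraries, while the median over all genes was within 0.0014 of 0 in each library. The summed level of the members was 2571, 2592 and 2585 FPKM in WT against 2819, 2826 and 2817 in cKO. That was 0.988%, 0.985% and 0.956% of the summed FPKM of the table in WT and 1.14%, 1.11% and 1.10% in cKO. The number of members above their own mean was lowest in WT 2, at 84, and highest in cKO 2, at 245.

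**Figure D2:**
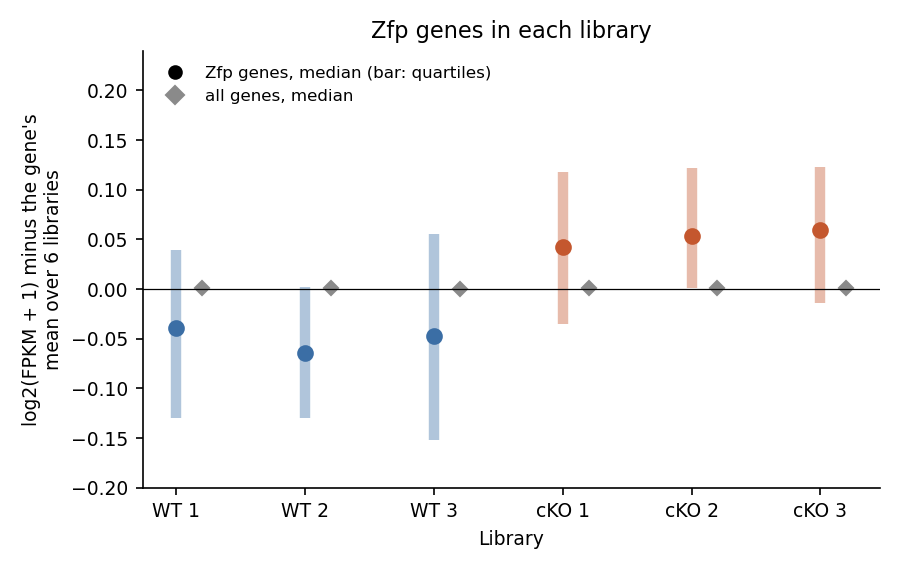
Deviation of log2(FPKM + 1) from each gene's mean over the 6 libraries (y axis) in each library (x axis). Circles are medians over the 324 Zfp genes, bars their quartiles and diamonds the medians over all 15703 genes. The 3 cKO medians lie between 0.042 and 0.059 and the 3 WT medians between -0.065 and -0.039, with the diamonds near 0.

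The largest rise was that of Zfp882, a KRAB protein with 13 fingers (chromosome 8, 71908608 to 71916354, plus strand). It was at 4.55, 5.64 and 3.86 FPKM in WT against 7.07, 8.01 and 8.38 in cKO. Each cKO library was above the highest WT library, with a difference of 0.64 ± 0.11 (SE) on the log2(FPKM + 1) scale (limma, adjusted p = 0.00494). Zfp663, a KRAB protein with 6 fingers (chromosome 2, 165351297 to 165368729, minus strand), was at 1.221, 1.467 and 0.927 FPKM in WT against 2.37, 2.33 and 1.94 in cKO. Its 1.84-fold difference in means was the largest ratio among the members called higher (0.55 ± 0.11 SE, limma, adjusted p = 0.00834). Both genes kept an adjusted p under 0.05 when any 1 library was left out.

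The largest fall was that of Zfp365 (chromosome 10, 67886103 to 67912662, minus strand), whose product is known as a partner of the scaffold protein DISC1 in brain. It was at 5.69, 3.94 and 4.82 FPKM in WT against 2.84, 2.63 and 2.88 in cKO. Each cKO library was below the lowest WT library, and the WT mean was 1.73 times the cKO mean (-0.61 ± 0.11 SE, limma, adjusted p = 0.00542, largest adjusted p without any 1 library 0.0232). Its translated sequence held no match to the C2H2 pattern used here.

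The promoters of these 3 genes are shown because they belong to the most strongly changed members, up and down, whose upstream 250 bases were free of annotated exons. Each is the stretch just before the gene's start in RefSeq (GRCm38.p6), written 5′ to 3′ on the gene's strand, with matches to the E-box CANNTG in capitals. They are Zfp882 at chr8:71908356-71908605 on the plus strand, Zfp663 at chr2:165368737-165368986 on the minus strand and Zfp365 at chr10:67912663-67912912 on the minus strand.
Zfp882: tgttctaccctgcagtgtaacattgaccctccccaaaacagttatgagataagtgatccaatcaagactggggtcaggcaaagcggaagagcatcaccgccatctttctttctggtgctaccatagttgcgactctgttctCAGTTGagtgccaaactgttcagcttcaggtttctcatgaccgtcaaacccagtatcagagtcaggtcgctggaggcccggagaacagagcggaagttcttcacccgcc
Zfp663: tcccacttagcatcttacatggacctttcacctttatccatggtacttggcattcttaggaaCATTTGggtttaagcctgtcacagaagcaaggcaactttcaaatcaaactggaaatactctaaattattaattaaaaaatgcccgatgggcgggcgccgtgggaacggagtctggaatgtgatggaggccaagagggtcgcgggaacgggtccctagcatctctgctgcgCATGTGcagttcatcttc
Zfp365: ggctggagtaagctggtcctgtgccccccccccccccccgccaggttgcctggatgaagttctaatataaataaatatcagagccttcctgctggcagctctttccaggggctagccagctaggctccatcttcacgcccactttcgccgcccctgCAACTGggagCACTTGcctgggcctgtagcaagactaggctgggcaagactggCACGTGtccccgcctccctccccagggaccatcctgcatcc
Zfp882 had 1 match, CAGTTG, that began 109 bases before the start. Zfp663 had 2, CATTTG at 188 and CATGTG at 18 bases before the start. Zfp365 had 3, with CAACTG at 94, CACTTG at 84 and CACGTG at 41 bases before it. Such matches are common: reading CANNTG, which is its own reverse complement, the same window held at least 1 in 63.1% of the 268 members with a listed promoter, in 64.1% of the 39 members called higher, in 56.5% of 10484 genes of the table and in 66.0% of all 27025 listed promoters. The narrower form CAGGTG, counted with its reverse complement CACCTG, was in 12.3% of the members, 14.98% of the genes of the table and 17.1% of all promoters. The form CATCTG, with its complement CAGATG, was in 13.4% of the members, 9.68% of the genes of the table and 14.5% of all promoters. CAGCTG was in 13.1%, 11.7% and 12.8% of them. The members' share of CANNTG lay between that of the genes of the table and that of all promoters. A match is a description of sequence and not a binding site.

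Of the other 10 large rises, 6 were KRAB genes. Zfp790 (chromosome 7, 12 fingers) was at 7.63, 9.59 and 8.50 FPKM in WT against 12.995, 12.080 and 12.502 in cKO, and had the smallest adjusted p of all members (0.50 ± 0.08 SE, limma, adjusted p = 0.00349). Zfp607b, in another cluster of the same chromosome, was at 2.71, 3.30 and 2.59 FPKM in WT against 4.94, 4.33 and 3.96 in cKO. Its call (limma, adjusted p = 0.0111) was lost without cKO 1 (0.0503). It shares 10.8% of its 50-base words with other genes, so how reads from near-identical copies were counted is uncertain. Zfp454 was at 3.376, 3.936 and 3.398 FPKM in WT against 5.58, 4.81 and 5.45 in cKO, with no overlap (limma, adjusted p = 0.00693).

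Zfp189, studied as a mediator of stress resilience in adult frontal cortex, was at 3.39, 4.02 and 3.58 FPKM in WT against 5.06, 5.01 and 5.91 in cKO. Each cKO library was above the highest WT library, with an adjusted p of 0.00982 by limma. Zfp429 was at 0.774, 0.918 and 0.820 FPKM in WT against 1.43, 1.49 and 1.52 in cKO (limma, adjusted p = 0.00504), and Zfp493, in the same cluster on chromosome 13, had WT values of 0.736, 1.06 and 0.782 FPKM and cKO values of 1.59, 1.47 and 1.36 FPKM (limma, adjusted p = 0.0135). These 2 genes reached the mean of 1 FPKM only in the cKO group, so the rule that chose the members favoured a rise for them. Zfp429 shares 25% of its 50-base words with other genes. Zfp493 lost its call without WT 1 (adjusted p = 0.0613) or cKO 1 (0.0543).

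The 4 without a KRAB match were Zfp395, Zfp219, Zfp827 and Zfp322a. Zfp395, the orthologue of a human factor found on the huntingtin promoter, was at 1.88, 2.01 and 1.23 FPKM in WT against 2.998, 2.802 and 2.795 in cKO (0.52 ± 0.12 SE, limma, adjusted p = 0.0140, 0.0581 without cKO 1). Zfp219, a transcriptional partner of Sox9 in cartilage, was at 10.3, 11.8 and 9.73 FPKM in WT against 15.221, 15.073 and 13.994 in cKO (limma, adjusted p = 0.00499); 12.7% of its exon bases overlap another gene. Zfp827, which brings the NuRD remodelling complex to telomeres, was at 7.56, 8.35 and 6.65 FPKM in WT against 11.3, 10.4 and 9.71 in cKO. Zfp322a, described in pluripotent cells, was at 10.7, 13.5 and 10.9 FPKM in WT against 14.9, 15.8 and 16.9 in cKO. Zfp827 (limma, adjusted p = 0.0106) lost its call without cKO 1 (0.0507) and Zfp322a (limma, adjusted p = 0.0136) without WT 1 (0.0612).

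**Figure D3:**
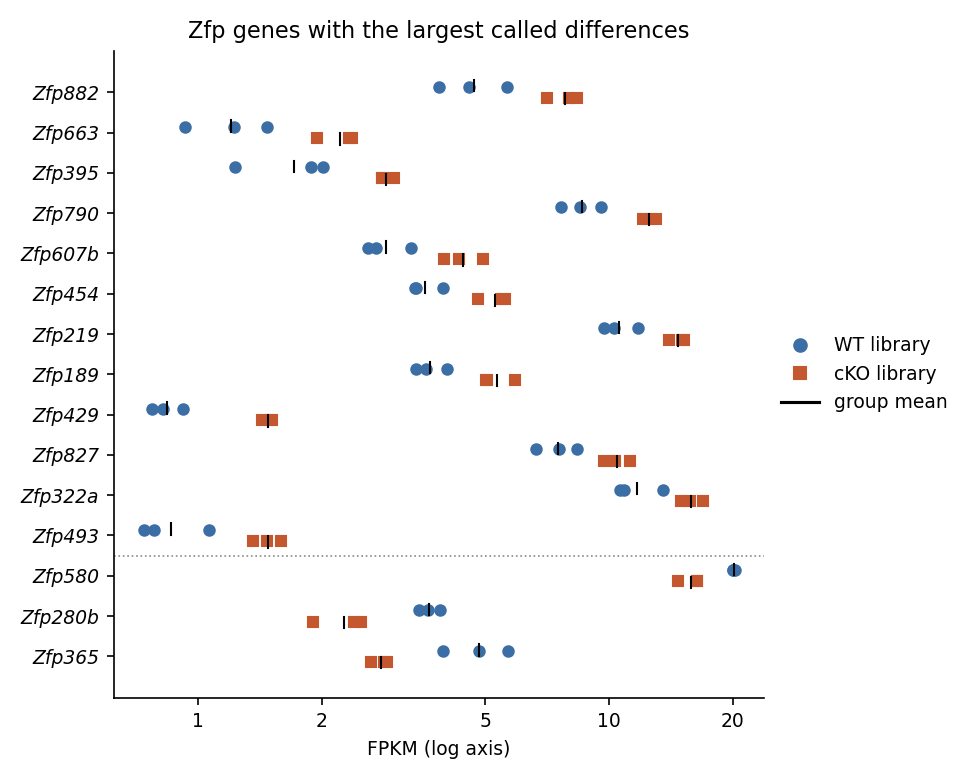
FPKM in each library (x axis, log scale) for the 12 Zfp genes with the largest called rises, above the dotted line, and the 3 called falls, below it. Circles are WT libraries, squares cKO libraries and short lines group means. In each of the 15 genes the 3 WT and 3 cKO values do not overlap.

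The 3 falls had no KRAB match. Besides Zfp365 they were Zfp280b and Zfp580. Zfp280b (chromosome 10, 76032650 to 76043234, plus strand) was at 3.88, 3.63 and 3.45 FPKM in WT against 1.898, 2.389 and 2.497 in cKO, a 1.61-fold lower mean (limma, adjusted p = 0.00623). Zfp580 (chromosome 7, 5051538 to 5053723, plus strand) was tightly grouped in WT, at 20.237, 20.037 and 20.044 FPKM, and was at 16.4, 14.8 and 16.4 FPKM in cKO (-0.33 ± 0.07 SE, limma, adjusted p = 0.00904). The call of Zfp580 was lost without cKO 2 (0.0526), whereas Zfp280b and Zfp365 passed without any 1 library. The other 9 members with every cKO library below every WT library did not pass: Zfp747, Zfp385b, Zfp408, Zfp459, Zfp64, Zfp706, Zfp622, Zfp768 and Zfp251, named after their values were seen.

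The 31 rises after the 12 largest ran from 0.23 to 0.41 on the log2(FPKM + 1) scale. The smallest adjusted p-value among them was that of Zfp658, at 5.16, 5.03 and 5.12 FPKM in WT against 7.39, 6.95 and 7.01 in cKO (0.41, limma, adjusted p = 0.00362). Zfp638, which works with the HUSH complex to silence unintegrated retroviral DNA, was at 13.9, 17.7 and 13.9 FPKM in WT against 18.6, 19.7 and 19.0 in cKO. WT 2 stood above the other WT libraries, and the call (limma, adjusted p = 0.0403) was lost in 5 of the 6 fits that left out 1 library. Of 5 members on chromosome X, 2 were among these rises, Zfp275 (limma, adjusted p = 0.0279) and Zfp182 (0.0493), with calls lost in 3 and 5 of the fits without 1 library. Over all genes 7.22% were called higher. Zfp275 was at 5.73, 5.97 and 5.88 FPKM in WT against 6.92, 7.48 and 7.37 in cKO. WT 1 and cKO 3, the libraries with low Xist, lay close to the others of their group. Zfp658, Zfp638, Zfp275 and Zfp182 were named after their values were seen.

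All 46 called members had groups that did not overlap, which adds little to a call with 3 libraries a group. Few calls stood on every library. Of the 43 rises 10 (Zfp882, Zfp663, Zfp790, Zfp454, Zfp219, Zfp189, Zfp429, Zfp658, Zfp467 and Zfp180), and of the 3 falls 2, were called whichever library was left out, and 1 called member, Zfp773, was called in none of those 6 fits. The number of members called higher was 15 without WT 1, 52 without WT 2, 32 without WT 3, 20 without cKO 1, 15 without cKO 2 and 24 without cKO 3. The number called lower was 2 to 4 in these fits except without WT 2, when it was 10. Over the same fits the median difference of the members stayed between 0.092 and 0.114.

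The 6 most abundant members had mean levels of 39.3 to 74.6 FPKM, against a median of 5.84 FPKM and quartiles of 3.32 and 10.3 FPKM over the 324 genes. Highest was Zfp57, the KRAB protein that keeps DNA methylation at imprinted loci, at 66.2, 69.0 and 65.3 FPKM in WT against 94.9, 77.1 and 75.2 in cKO. Its cKO values were all above WT, with cKO 1 far above the other 2, and its call rested on few libraries (0.29 ± 0.09 SE, limma, adjusted p = 0.0476). The call was lost in 5 of the 6 fits that left out 1 library, where the adjusted p reached 0.129 without WT 1, and the difference was 0.19 without cKO 1. Without the trend and robust options of limma the adjusted p was 0.0704.

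Zfp706, a small protein with 1 finger, was next at 59.9, 56.7 and 59.3 FPKM in WT against 50.5, 51.1 and 53.9 in cKO. Its values were lower in all 3 cKO libraries, but it did not pass (-0.18 ± 0.06 SE, limma, adjusted p = 0.0692). Zfp428 was at 47.6, 48.0 and 54.1 FPKM in WT against 57.7, 54.8 and 53.8 in cKO, overlapping at WT 3 (limma, adjusted p = 0.158, 0.0446 without WT 3). Of the exon bases of Zfp428 17.7% overlap another gene. Zfp445, a KRAB and SCAN protein, was at 47.4, 48.4 and 45.7 FPKM in WT against 50.5, 51.4 and 48.7 in cKO, a difference of 0.09 that did not pass (limma, adjusted p = 0.329). With exon length and GC content removed from each library, Zfp428 (0.25, adjusted p = 0.0186) and Zfp706 (-0.20, adjusted p = 0.0247) both passed. Zfp266, a KRAB protein whose loss eases reprogramming to pluripotency, rose from 32.6, 40.7 and 32.4 FPKM to 44.4, 48.6 and 47.7 FPKM (limma, adjusted p = 0.0133, up to 0.0596 without 1 library).

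The share of members that rose was set beside that of all genes at the same level. Of 86 members with a mean of at least 10 FPKM, 20 rose (23.3%), against 6.76% of all genes at that level. The share was 9.18% of 98 members between 5 and 10 FPKM (8.60% of all genes there), 10.4% of 106 between 2 and 5 FPKM (9.02%) and 8.82% of 34 between 1 and 2 FPKM (6.78%). The shares called at the lower levels were thus near the background, while the median difference was above 0 at each level, from 0.08 to 0.12, against -0.0036 to 0.03 over all genes. Called members had between 45 and 8502 reads in a library, recovered from FPKM and exon length, and genes with few reads need a larger difference to pass.

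Near the limit of 1 FPKM the lowest members were Zfp960 (mean 1.05 FPKM), Zfp459 (1.07 FPKM) and Zfp947 (1.09 FPKM). Just outside were Zfp418 (0.998 FPKM), Zfp607a (0.996 FPKM) and Zfp36 (0.937 FPKM). Of the 324 members 5 reached 1 FPKM in the cKO mean alone and 2 in the WT mean alone. Of the 22 rows under 1 FPKM, 2 were called higher, Zfp418 and Zfp82, and 0 lower. The share called higher, 9.09%, was near the 7.22% of all genes, and 8.59% of all genes were called lower.

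The rise was seen in members with and without a KRAB box. A KRAB match was found in 193 translated members, of which 26 rose and 0 fell, and the median difference was 0.12 with 80.8% above 0. Of the 131 members without one, 17 rose and 3 fell, with a median of 0.07 and 73.3% above 0. The shares called higher were nearly the same, 13.47% and 12.98%, against 7.22% of all genes. The shares called lower were 0% and 2.29%, against 8.59% of all genes. A SCAN match was found in 13 members, 5 of them with KRAB as well, and none of the 13 was called, though 12 had a difference above 0. Over all genes 15.8% were called in either direction and 50.4% had a difference above 0. At an unadjusted p under 0.05, 2 of these 13 were higher and 0 lower by limma. Of all 15703 genes 2488 were higher and 2565 lower at that level.

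The difference was also set against the number of fingers. The median was 0.05 in the 46 members with 0 to 4 fingers, 0.07 in the 90 with 5 to 9, 0.13 in the 122 with 10 to 14 and 0.13 in the 66 with 15 or more. The numbers called higher were 4, 12, 17 and 10 (8.70%, 13.3%, 13.9% and 15.2%), against 7.22% of all genes. Those called lower were 2, 1, 0 and 0 (4.35%, 1.11%, 0% and 0%), against 8.59% of all genes. The share called higher with 0 to 4 fingers was thus near that of all genes. Across the 324 members Spearman's rho between the finger count and the difference was 0.21, given as a description, since the members share the 6 libraries and many are duplicates of each other. Zfp619, with 33 fingers, was at 2.47, 1.76 and 2.17 FPKM in WT against 2.79, 2.89 and 3.14 in cKO (limma, adjusted p = 0.0487, lost in 5 of the fits without 1 library), whereas Zfp142, with 36, did not pass (adjusted p = 0.124).

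**Figure D4:**
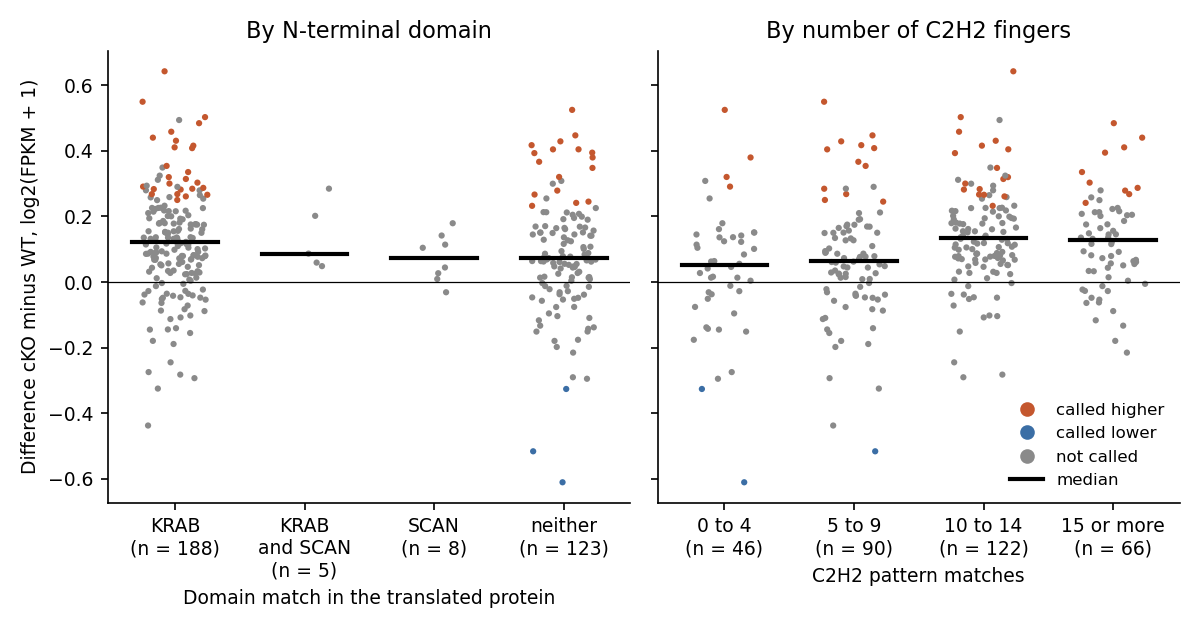
Difference between the cKO and WT means on the log2(FPKM + 1) scale (y axis) for each of 324 Zfp genes, by KRAB and SCAN matches (left) and by number of C2H2 pattern matches (right). Points are genes, coloured by call, and black lines are medians, which run from 0.07 to 0.12 by domain and from 0.05 to 0.13 by finger count; the 3 called falls are all in the group with neither domain.

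Exon length moved with the difference over the whole table. Spearman's rho between exon length and the difference was 0.23 over 15661 genes and 0.09 over the members, and the members' median exon length was 4766 bases against 4229 for all genes. For GC content rho was -0.07 over 15655 genes and -0.10 over the members, whose median was 44.2% against 49.2%. These values share the 6 libraries and are given as a description. Compared within bins of exon length, the members' median was 0.09 against -0.08 for all genes under 2500 bases, 0.09 against -0.01 from 2500 to 5000, 0.11 against 0.03 from 5000 to 7500 and 0.12 against 0.06 from 7500 up. The members' median was above that of all genes in each bin, and the gap was smallest in the longest genes. With exon length and GC content removed from each library, 40 members were called higher and 6 lower and the median difference was 0.09.

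Members with near-identical copies were considered apart, since how reads that match several copies were counted is uncertain. Of 52 members that share over 10% of their 50-base words with another gene, 3 were called higher (5.77%), against 40 of the other 272 (14.7%). The median difference was 0.11 in the first set and 0.10 in the second. Of 34 members that share over 10% of their exon bases with an overlapping gene, 2 were called higher (5.88%). Over all genes 7.22% were called higher. Whether the counting used strand is not given in the sources used here, so reads of such overlaps cannot be assigned.

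Zfp genes lie in clusters, and the shift was seen across them. Of all members 77.8% had a difference above 0, 13.3% were called higher and 0.926% lower. Over all genes these shares were 50.4%, 7.22% and 8.59%. With members grouped where neighbours lay at most 500 kb apart, 136 members, 111 of them with a KRAB match, fell into 13 clusters of at least 5. The median difference was above 0 in all 13, from 0.01 in 9 genes on chromosome 6 (47819266 to 48623227) to 0.24 in 6 genes on chromosome 11 (50811086 to 51072799). On chromosome 7, which held 81 members with 14 called higher and 1 lower, all 14 genes between 29768552 and 30169750 had a difference above 0 (median 0.17), and Zfp84, Zfp790 and Zfp420 were called. Zfp420 was at 3.85, 4.74 and 4.42 FPKM in WT against 6.25, 6.28 and 5.49 in cKO (limma, adjusted p = 0.0155, lost in 3 of the fits without 1 library). Its neighbour Zfp568, the KRAB repressor of the placental transcript of Igf2, was at 1.540, 1.256 and 1.218 FPKM in WT against 1.66, 1.64 and 1.64 in cKO and did not pass (adjusted p = 0.177).

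Within clusters some genes went the other way. On chromosome 13 between 67038596 and 67827002, 15 of 18 genes had a difference above 0 and 3 were called (Zfp429, Zfp493 and Zfp874b). Zfp459 in the same cluster was at 1.42, 1.09 and 1.27 FPKM in WT against 0.776, 0.818 and 1.01 in cKO, without passing (adjusted p = 0.0619). On chromosome 17, 16 of 22 genes between 21008903 and 23599487 had a difference above 0 with 1 called (Zfp40), and 10 of 13 between 32765496 and 33631779 with 0 called. Neighbours in a cluster are related in sequence and are not independent genes.

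**Figure D5:**
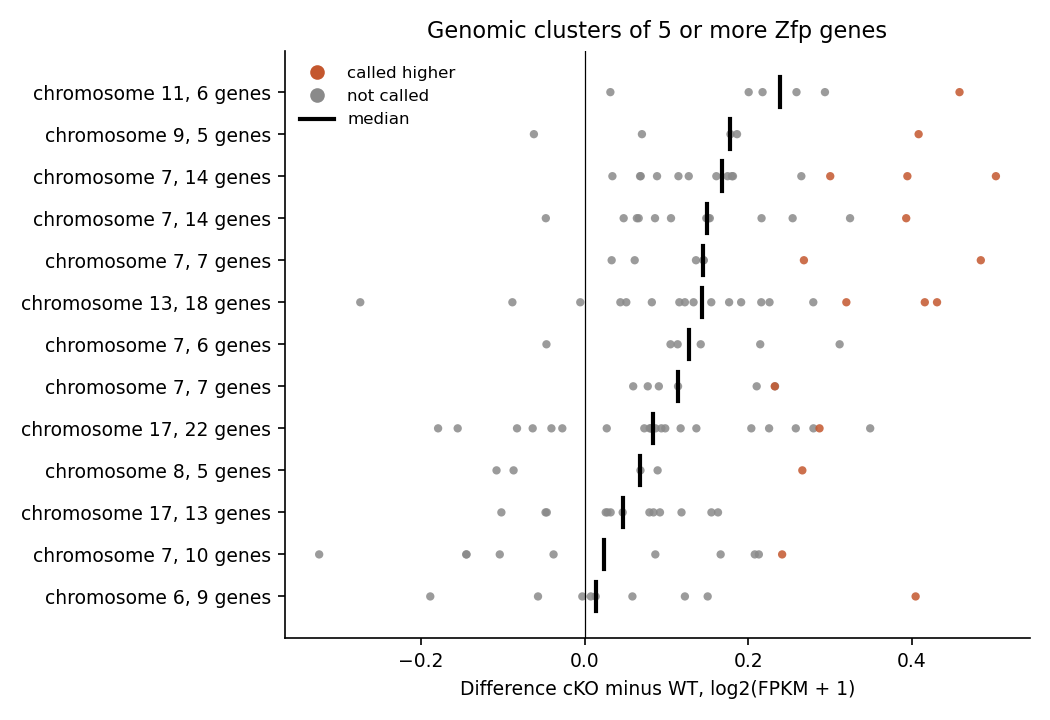
Difference between the cKO and WT means on the log2(FPKM + 1) scale (x axis) for the 136 Zfp genes in 13 genomic clusters (rows, ordered by median). Points are genes, orange where called higher, and black lines are cluster medians, which are all above 0 and run from 0.01 to 0.24.

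Of the members known for imprinting and the silencing of retroelements, all 5 had a difference above 0, 4 of them with groups that did not overlap, and 1, Zfp57, was called. Over all genes 50.4% had a difference above 0, 18.5% had every cKO library above every WT library and 7.22% were called higher. Zfp932, which represses endogenous retroviruses, was at 15.2, 17.9 and 16.8 FPKM in WT against 21.4, 19.8 and 17.6 in cKO, so that cKO 3 lay within the WT range (limma, adjusted p = 0.106). Zfp809, which silences retroviruses through their primer binding site, was at 2.504, 2.632 and 2.522 FPKM in WT against 2.741, 3.002 and 3.309 in cKO (limma, adjusted p = 0.186). Zfp445, which shares the imprinting role of Zfp57, is given above.

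Of 8 members that act on RNA, ribosomes or the spindle, 1 rose and 0 fell, which is near the 7.22% of all genes called higher. The member that rose was Zfp207. This microtubule-binding partner of the checkpoint protein Bub3 was at 31.3, 39.1 and 31.9 FPKM in WT against 46.0, 44.7 and 42.7 in cKO (limma, adjusted p = 0.0151, 0.0670 without WT 1). Zfp598, the ubiquitin ligase that senses collided ribosomes, was at 11.3, 14.3 and 12.7 FPKM in WT against 16.7, 14.3 and 15.2 in cKO, with overlap at WT 2 (limma, adjusted p = 0.0845, 0.0277 without WT 2 and 0.0413 by voom on recovered reads). Zfp385b, a relative of the RNA-binding Zfp385a, was at 2.19, 2.66 and 2.20 FPKM in WT against 1.5, 1.81 and 1.87 in cKO and missed the threshold (adjusted p = 0.0641), but passed on recovered reads (voom, 0.0179) and with length and GC content removed (0.0349).

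Of 11 members with roles in neural development 1 was called, the fall of Zfp365 given above, which is near the 8.59% of all genes called lower, and the median difference of the group was 0.03. Zfp292, mutated in intellectual disability, was at 20.4, 22.9 and 19.9 FPKM in WT against 21.4, 24.6 and 23.3 in cKO (limma, adjusted p = 0.271). Zfp521, a regulator of early neural differentiation, was at 2.15, 1.74 and 1.85 FPKM in WT against 1.48, 1.89 and 1.61 in cKO (limma, adjusted p = 0.360). Both binding partners of the neurotrophin receptor Ngfr, Zfp110 and Zfp369, did not pass either, at adjusted p-values of 0.676 and 0.0641 by limma, though Zfp369 had all cKO values (6.70, 7.01 and 6.44 FPKM) above all WT values (5.89, 5.65 and 4.54 FPKM) and passed on recovered reads (voom, adjusted p = 0.0187) and in the replicate block fit (limma, adjusted p = 0.0466).

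Of 11 general regulators 2 rose, Zfp219 and Zfp827, beside 7.22% of all genes. Zfp609, which joins the cohesin loader Nipbl to the Integrator complex in cortical neurons, was at 16.7, 19.8 and 13.9 FPKM in WT against 22.3, 20.8 and 19.5 in cKO. WT 2 lay within the cKO range and the gene did not pass (limma, adjusted p = 0.0843), but it passed without WT 2 (0.0139), on recovered reads (voom, 0.0220) and in the replicate block fit (0.0362), though not with the block and the length and GC correction together (0.0514).

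The partners of the KRAB box were examined as the other genes of the pathway. Of 31 cofactor genes measured, 5 rose and 0 fell, beside 7.22% of all genes called higher and 8.59% called lower, and the median difference was 0.09. Trim28, the scaffold, was at 75.1, 74.1 and 70.6 FPKM in WT against 79.7, 73.7 and 76.5 in cKO, with overlapping groups (limma, adjusted p = 0.493). Setdb1 was at 15.7, 16.4 and 15.1 FPKM in WT against 18.547, 18.047 and 18.295 in cKO and passed narrowly (limma, adjusted p = 0.0471, up to 0.131 without 1 library). The firmest rise was in the deacetylase Hdac1, at 9.51, 10.2 and 9.54 FPKM in WT against 12.5, 12.3 and 13.1 in cKO (limma, adjusted p = 0.00694), which passed without any 1 library. The others were Fam208a, a subunit of the HUSH silencing complex (limma, adjusted p = 0.0128), the remodeller Smarcad1 (0.0234) and the DNA methyltransferase Dnmt3a (0.0334), whose calls were lost in 2, 3 and 5 of the fits that left out 1 library. Of the exon bases of Fam208a 12.9% overlap another gene. The count of cofactor genes called ran from 1 without WT 1 or cKO 2 to 8 without WT 2.

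Related zinc finger families whose symbols the rule leaves out moved in both directions. Of 23 genes, 5 rose and 3 fell (7.22% and 8.59% of all genes), and the median difference was 0.05. The largest rise was in Zfhx4, a giant homeobox and zinc finger protein, at 1.254, 1.128 and 0.995 FPKM in WT against 2.21, 2.58 and 2.70 in cKO (0.72 ± 0.09 SE, limma, adjusted p = 0.000886). Zkscan3, a KRAB and SCAN protein known as a repressor of autophagy genes, was at 9.56, 10.2 and 9.55 FPKM in WT against 13.5, 13.5 and 12.8 in cKO (limma, adjusted p = 0.00288). Zkscan16, Zscan26 and Zfhx2 also rose, the last 2 losing their calls in 3 and 4 of the fits without 1 library. Of the exon bases of Zscan26 and Zfhx2, 23.6% and 17.9% overlap another gene, so their reads are uncertain. The largest fall on the log2(FPKM + 1) scale was in Zbtb18, a transcriptional repressor of cortical excitatory neurons, at 273, 291 and 303 FPKM in WT against 196, 206 and 206 in cKO (-0.51 ± 0.06 SE, limma, adjusted p = 0.000622). By the ratio of means Zbtb16 fell further, the WT mean being 1.57 times the cKO mean against 1.43 times for Zbtb18. Zbtb16 (limma, adjusted p = 0.0270) and the GATA partner Zfpm2 (0.0411) fell as well, with calls lost in 3 and 4 of those fits. The count of related genes called was 4 without WT 1 and 5 without cKO 1, against 8 with all libraries.

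Markers of other cells moved with the comparison. For scale, 7.22% of all genes were called higher and 8.59% lower. Of 11 astrocyte markers 9 fell, with summed levels of 262 to 314 FPKM in WT against 216 to 249 in cKO, and of 11 microglia markers 6 fell (37.3 to 44.5 against 23.9 to 32.5 FPKM). Of 12 interneuron markers 4 fell, and 10 had a difference below 0. Every cKO library was below every WT library for 8 of them (66.7%, against 18.7% of all genes). Their sums overlapped (199.4 to 227.4 against 201.1 to 216.3 FPKM). Npy, the most abundant of them, had a higher mean in cKO without a call. It was at 72.7, 87.5 and 108 FPKM in WT against 102, 106 and 111 in cKO. Of 11 markers of dividing cells 6 rose, and 10 had a difference above 0. Every cKO library was above every WT library for 7 of these markers (63.6%, against 18.5% of all genes). Their sums, 74.8 to 82.6 FPKM in WT against 81.7 to 99.5 in cKO, overlapped at cKO 1. Pcna, the most abundant of these markers with a mean of 32.3 FPKM, was not called (difference -0.01, limma, adjusted p = 0.948). None of 7 endothelial and 4 blood or choroid markers was called by limma, with 1 and 0 at an unadjusted p under 0.05. Of all 15703 genes 5053 were under that p. No measured marker was listed at 0, and Mt2, Hbb-bs and Hbb-bt of the lists were not analysed here. The part of these markers in the shift of the Zfp genes was not tested.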

How the data were processed

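The authors deposited 1 table of FPKM per gene for the 6 neocortex libraries. Per the submitters' processing notes the tools were bcl2fastq 1.8.4, STAR 2.5.4b, featureCounts 1.6.1, R 3.4.1 and DESeq2 1.22.1 with the mm10 build. The annotation release, strand setting and FPKM formula were not stated. Per the labels' protocols, Trizol was used to take RNA and a TruSeq RNA kit to build libraries. The table held 15703 genes and 139 blank lines.

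The main test was limma 3.58.1 (R 4.3.3) with a mean-variance trend and robust moderation on log2(FPKM + 1), with no filter on low values, over all 15703 genes. P-values were adjusted by Benjamini-Hochberg and called under 0.05. On the log2(FPKM + 1) scale a low gene's fold change comes out too small. With 3 libraries a group, simulated data of the same table gave recovery of 10% of genes changed 1.25-fold. Recovery was 62% at 1.5-fold and 100% at 2-fold, with 11 false calls. Only 50 of 15703 genes were changed at each of these sizes, whereas 2483 genes were called in the deposited table. The adjustment depends on how many genes have small p-values, so recovery with as many calls as here was not tested.

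FPKM times exon length (GENCODE M21, 15661 genes matched and 42 not) gave reads within 0.1 of a whole number for 94.8% to 96.0% of low values, against 17.9% to 21.9% at a wrong library size, and library sizes of 23.2 M to 26.08 M fragments. Reads summed over genes exceeded the recovered size in each library, at 28.8 M against 26.08 M in WT 1. The divisor was thus not shown to be the total of mapped fragments. KRAB and SCAN boxes were found with profiles (pyhmmer 0.12.3, E-value 1e-05) and fingers by pattern in 1 translated GENCODE coding sequence per gene, so a box in another transcript would be missed. Promoters came from RefSeq (GRCm38.p6) by symbol.

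The members and all gene lists were chosen with earlier results of these data known. Genes were named by this rule: the called members with groups that do not overlap (the 12 largest rises and falls), the 6 highest means, the 3 genes on each side of 1 FPKM, the 3 smallest p-values of each role group, Tcf4, Trim28, Setdb1 and called genes of the cofactor and related lists. Other genes were named after their values were seen. The alternatives were another pseudocount, a filter on low values, plain limma, quantile normalisation, removal of exon length and GC content, a replicate block, voom on recovered reads, other limits on the mean and leaving out each library. Some genes of the cortical marker list are not reported here.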

Additional observations from a re-analysis of the deposited data

How the results depend on the processing

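Under the other pseudocount, filter, plain limma, quantile, correction, block and voom settings, and with limits of 0.5 or 2 FPKM, 35 to 61 members were called higher (43 as reported) and 3 to 6 lower. The count called lower was 6 with exon length and GC content removed, 5 with the replicate block and 6 with the replicate block and that correction. The median difference of the members was 0.119 with a pseudocount of 0.1, 0.129 with voom on recovered reads and 0.085 with length and GC content removed, with or without the replicate block. Leaving out 1 library gave 15 to 52 members higher, 2 to 10 lower, a median of 0.092 to 0.114, 1 to 8 cofactor genes and 4 to 8 related genes. The cause of these changes was not tested, and the fits that left out 1 library also had fewer libraries.

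The replicate numbers did not pair the libraries: deviations of same-numbered libraries correlated at -0.046, 0.10 and -0.048. The replicate block left 42 members called higher, 35 together with the correction. For the 18 named members called with all libraries, the settings that left out no library kept the call 143 times and lost it 1 time, and those without 1 library kept it 91 times and lost it 17 times. For the 12 named members not called, the first kind gave a call 12 times and none 84 times. Without 1 library a call was gained 3 times and not gained 68 times, and 1 difference, that of Zfp110, changed sign without a call (-0.02). Tcf4 kept its fall in every setting run, at adjusted p-values of 0.00075 to 0.0189. Differences under about 1.5-fold are at the limit of what 3 libraries a group can show.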
